A study of Mus musculus with 16 samples.

Results

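The genes described here were the ligands, receptors and modulators of Wnt signalling. They were taken by symbol, as all Wnt, Fzd, Rspo, Dkk1 to Dkk4, Sfrp and Lgr4 to Lgr6 genes together with Lrp5, Lrp6, Znrf3, Axin1, Axin2, Apc, Gsk3b, Tcf7l2, Lef1, Wif1 and Sost, and they numbered 55 of the 19505 named genes of the array table. By role they were 19 ligands, 12 receptors and co-receptors, 8 genes of the R-spondin axis, 10 secreted antagonists, 4 genes of the destruction complex and 2 TCF factors, each with 1 probe set. Rnf43, Ctnnb1 and Tcf7, 3 further genes of the pathway, were not analysed here.

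RNA was measured from the nucleus pulposus (NP), the gel core of the intervertebral disc, and the annulus fibrosus (AF), the fibrous ring around it, in male mice at 24 months of age on a mixed C57BL/6Jx129SxFVB/NJ background. Sirt6 cKO mice carried 2 floxed copies of Sirt6, which encodes an NAD-dependent histone deacetylase, and the AcanCreERT2 allele, in which a tamoxifen-inducible Cre is driven from the aggrecan locus. Sirt6 fl/fl littermates carried the floxed copies without Cre, and both genotypes had received tamoxifen as young adults. The 4 groups were NP cKO, NP fl/fl, AF cKO and AF fl/fl, with 4 arrays in each, and each array held the lumbar and caudal discs of a single mouse pooled together. Deletion was therefore restricted to cells in which the aggrecan locus had been active at the time of tamoxifen, and cells of other kinds in the tissue kept Sirt6.

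Wnt proteins are secreted lipid-modified ligands that bind Frizzled (Fzd) receptors and, for the canonical branch, the co-receptors Lrp5 and Lrp6. Binding halts a destruction complex of Axin, Apc and Gsk3b, so that beta-catenin accumulates and acts in the nucleus with TCF and LEF factors. Znrf3 is a membrane ubiquitin ligase that removes Frizzled receptors from the cell surface, and R-spondins acting through Lgr4 to Lgr6 clear Znrf3 in turn. Dkk1 and sclerostin (Sost) block Lrp5 and Lrp6, and Sfrp proteins and Wif1 bind the ligands themselves. The pathway acts in the growth and upkeep of cartilage and bone.

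For 35 of the 55 genes a promoter sequence was found in RefSeq on GRCm38.p6, matched by symbol. The 250 bases before the start site are shown for Fzd1, the gene past the study's thresholds between genotypes in AF, and for Lgr6, Dkk2 and Tcf7l2, the genes called at adjusted p under 0.05 between NP and AF of cKO mice. They run 5′ to 3′ in the direction of the gene in lower case, and capitals mark CTTTGA on either strand, the core of the TCF and LEF recognition sequence. Fzd1 lies at chr5:4758217-4758466, minus strand, Lgr6 at chr1:135105277-135105526, minus strand, Dkk2 at chr3:132085042-132085291, plus strand, and the first of 2 Tcf7l2 starts at chr19:55741560-55741809, plus strand.
Fzd1: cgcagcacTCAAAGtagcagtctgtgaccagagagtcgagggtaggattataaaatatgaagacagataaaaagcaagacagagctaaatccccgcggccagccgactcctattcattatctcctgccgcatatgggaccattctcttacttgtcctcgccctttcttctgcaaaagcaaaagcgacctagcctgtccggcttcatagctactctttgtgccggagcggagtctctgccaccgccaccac
Lgr6: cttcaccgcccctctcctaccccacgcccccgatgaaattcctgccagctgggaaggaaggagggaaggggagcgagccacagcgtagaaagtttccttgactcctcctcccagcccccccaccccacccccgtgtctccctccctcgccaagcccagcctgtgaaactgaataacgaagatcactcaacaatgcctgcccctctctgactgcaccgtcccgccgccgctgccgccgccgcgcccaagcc
Dkk2: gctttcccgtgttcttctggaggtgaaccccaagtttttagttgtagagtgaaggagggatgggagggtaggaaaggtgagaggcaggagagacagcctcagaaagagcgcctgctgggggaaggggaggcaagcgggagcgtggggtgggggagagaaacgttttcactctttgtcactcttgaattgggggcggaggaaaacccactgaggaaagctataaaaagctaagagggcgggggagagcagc
Tcf7l2: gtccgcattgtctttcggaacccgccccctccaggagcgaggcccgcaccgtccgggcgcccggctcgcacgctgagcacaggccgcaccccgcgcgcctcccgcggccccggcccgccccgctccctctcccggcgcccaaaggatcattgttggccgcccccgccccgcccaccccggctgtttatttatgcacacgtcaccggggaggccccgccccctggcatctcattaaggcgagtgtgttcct
Fzd1 held the 6-base word on the opposite strand, its first base 242 bases before the start, and the Lgr6, Dkk2 and Tcf7l2 windows shown held none. Over all members with a promoter entry, 6 of 42 promoters (14.3%) held it, those of Lef1, Fzd1, Wnt5b, Wnt11, Gsk3b and Dkk1, against 13.8% of all 32851 promoters of the same length. A match of these letters describes the sequence only.

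Values were log2 signals, and a probe set was counted as over background on an array where it was at least 2-fold above the median of 23 background control probe sets of that array. Background medians lay at 4.28 to 4.33 for NP and at 4.65 to 4.83 for AF, and 15.5 to 17.8% of named genes in NP and 17.4 to 22.6% in AF passed that limit. In a principal component analysis of each tissue, NP cKO arrays 1 and 3 stood apart from the other NP arrays, with first component scores of 61.4 and 61.5 against −32.2 to −4.3. AF cKO array 1 stood apart likewise, with a score of 117, and correlated at 0.52 with the rest of its tissue, against 0.666 to 0.808 for the other AF arrays. A list of 12 cartilage genes had a mean signal of 0.229 to 1.67 log2 units over background in NP cKO and 0.5 to 0.654 in NP fl/fl, and of 0.516 to 4.11 in AF cKO and 0.773 to 1.11 in AF fl/fl. A list of 12 NP and notochord genes lay at 2.19 and 2.23 on NP cKO arrays 1 and 3 and at 0.555 on arrays 2 and 4. It lay at 1.11 to 1.71 in NP fl/fl, −0.0169 to 0.962 in AF cKO and 0.668 to 1.2 in AF fl/fl. At least 4 of the 8 arrays of a tissue detected 6 of these 12 genes in NP and 4 in AF. Of all named genes, 14.3% reached this in NP and 18.1% in AF. Of the 12 cartilage genes, 3 reached it in NP and 8 in AF, and of 11 annulus and tendon genes 3 in each tissue. Mkx, a tendon and annulus factor, was over background on 7 of 8 arrays of each tissue and Scx, another, on 0 of 8 of either. Of 8 listed bone and osteocyte genes, 1 reached at least 4 arrays in each tissue, Ibsp, over background on 7 NP and 5 AF arrays. Bglap was over background on 1 AF array. The rest of that list, among them Dmp1 and Mepe, defining markers of osteocytes, were over background on 0 of 8 arrays of either tissue. The list of 12 skeletal muscle genes lay at 0.269 to 1.85 in NP cKO and −0.0229 to 0.318 in NP fl/fl, and at 0.215 to 2.48 in AF cKO and −0.0399 to 0.473 in AF fl/fl. On NP cKO arrays 1 and 3, which stood apart, the cartilage list lay at 1.46 and 1.67 and the muscle list at 1.71 and 1.85. Sirt6 itself was over background on 0 of 8 arrays in each tissue. In NP it averaged 3.94 ± 0.405 in cKO and 3.96 ± 0.235 in fl/fl (SD, n = 4 each; two-sided exact permutation p = 0.83). In AF it averaged 4.19 ± 0.623 in cKO and 4.69 ± 0.292 in fl/fl (p = 0.2, exact permutation test), where 0.0286 is the smallest p that 4 against 4 arrays allow. The position of its probes relative to the deleted exons was not known, so these values do not check the genotype labels.

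Most Wnt genes gave little signal in either tissue. Over background on no array of either tissue were 29 of the 55 genes (52.7%), against 36.3% of all named genes, and 2 were over background on all 16 arrays, Wnt5a and Znrf3. On at least 4 of 8 NP arrays 6 genes were over background (10.9%, against 14.3% of all named genes), Znrf3, Wnt5a, Lrp6, Lgr4, Lrp5 and Wnt9a. On at least 4 of 8 AF arrays 3 were (5.45%, against 18.1%), Znrf3, Wnt5a and Lrp6. Over background on no NP array were 37 of the 55 (67.3%, against 58.6% of all named genes). On no AF array there were 34 (61.8%, against 45.3% of all named genes). In whole tissue RNA of this kind, fewer cells of a type and less RNA per cell cannot be told apart.

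**Figure D1:**
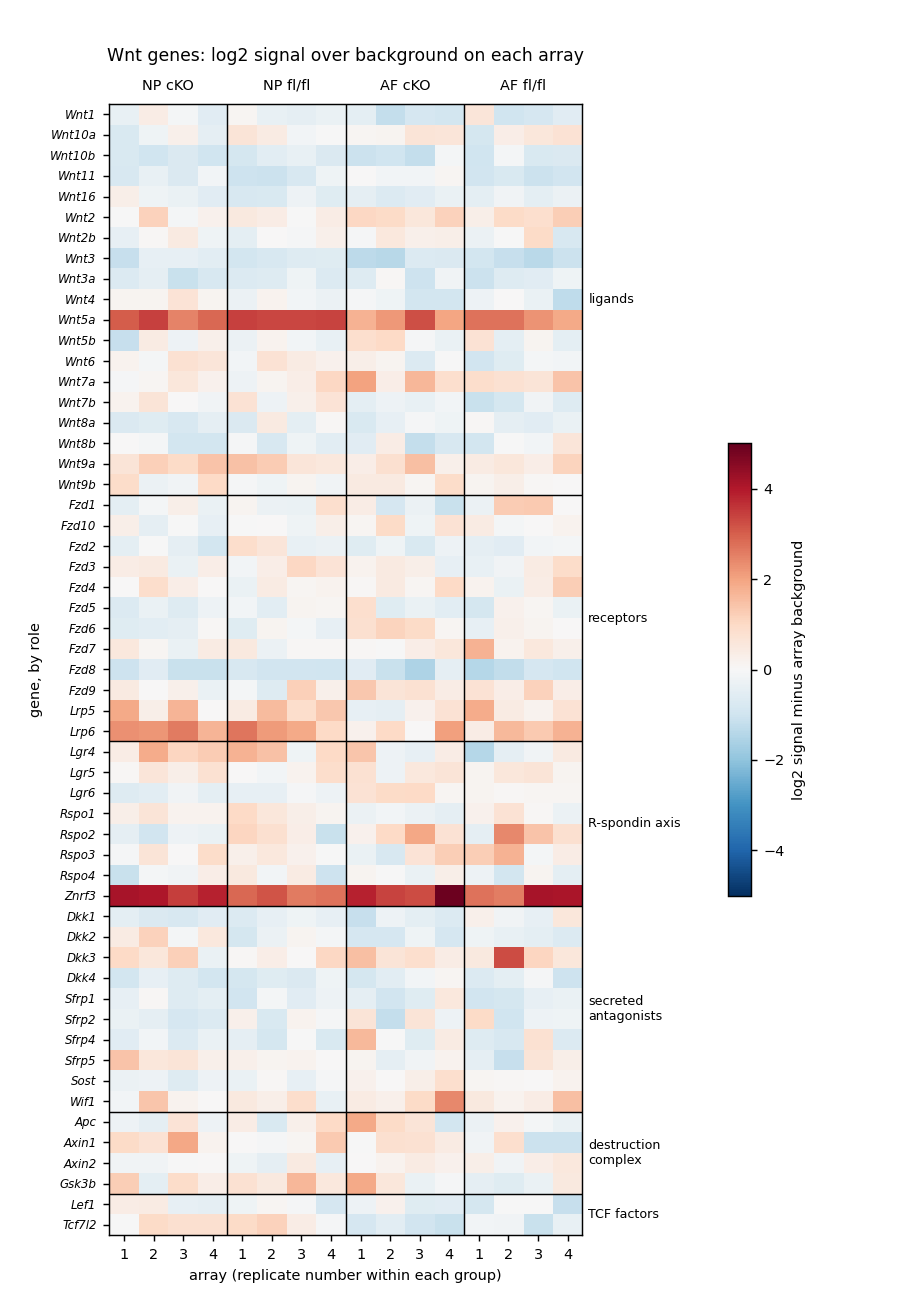
Log2 signal minus the array background for the 55 Wnt genes (rows, by role) on the 16 arrays (columns, 4 per group, NP cKO, NP fl/fl, AF cKO and AF fl/fl from left to right). The rows of Wnt5a and Znrf3 are red on all 16 arrays and that of Lrp6 on all 8 NP arrays, while most other rows stay near 0.

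Among the ligands, Wnt5a, which mostly acts through receptors of the beta-catenin-independent branch, was over background on all 16 arrays. On NP arrays it had log2 signals of 7.33, 7.75, 6.77 and 7.19 in cKO and 7.76, 7.66, 7.64 and 7.69 in fl/fl. The fl/fl values lay within a narrow band, and 3 of 4 cKO values lay below it. On AF arrays Wnt5a had 6.38, 6.96, 8.02 and 6.7 in cKO and 7.56, 7.43, 6.96 and 6.68 in fl/fl, with wide overlap. The other 18 ligands gave far fewer detections. Wnt9a passed the limit 4 times in NP and 2 times in AF, and Wnt7a and Wnt2 each 1 time in NP and 3 times in AF. Wnt9a had 4.97, 5.49, 5.23 and 5.75 in NP cKO and 5.8, 5.6, 4.89 and 4.84 in NP fl/fl, so that each genotype passed the limit on 2 of 4 arrays. Wnt7a, a ligand known from limb and skin development, had 6.67, 5.11, 6.42 and 5.57 in AF cKO and 5.7, 5.47, 5.37 and 6.19 in AF fl/fl, where arrays 1 and 3 of cKO and array 4 of fl/fl were over background. The remaining 15 ligands, among them Wnt1, Wnt3a, Wnt4, Wnt7b and Wnt11, were over background on no array.

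Of the receptors, the co-receptor Lrp6 was detected in all 8 NP samples and in 4 of the 8 from AF. On NP arrays it had 6.61, 6.52, 6.89 and 6.02 in cKO and 7.01, 6.42, 6.2 and 5.3 in fl/fl. On AF arrays it had 4.86, 5.78, 4.78 and 6.8 in cKO and 5.18, 6.34, 6.02 and 6.52 in fl/fl, and it was over background on 1 cKO and 3 fl/fl arrays. The genotypes overlapped in both tissues. Its paralog Lrp5, the co-receptor in which human mutations change bone mass, was detected 4 times in NP and 1 time in AF, with 6.22, 4.61, 5.98 and 4.35 in NP cKO and 4.72, 5.9, 5.2 and 5.66 in NP fl/fl. The high NP cKO values were on arrays 1 and 3, the arrays that stood apart, and without them the difference of Lrp5 between genotypes was −0.889 (limma unadjusted p = 0.039, adjusted p = 1), past the study's thresholds, against −0.08 over all 8 arrays. Of the Frizzled genes, Fzd9 passed the limit on 1 NP and 2 AF arrays, Fzd3 on 1 NP array, Fzd1 on 2 AF arrays and Fzd4, Fzd6 and Fzd7 on 1 AF array each, and Fzd2, Fzd5, Fzd8 and Fzd10 on none.

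In the R-spondin axis, Znrf3 was over background on all 16 arrays, and it is described with the genotype comparison. Lgr4, a receptor for R-spondins, was detected in 6 of 8 NP samples and in 1 of 8 from AF. It had 4.67, 6.19, 5.37 and 5.59 in NP cKO and 6.07, 5.76, 4.09 and 5.3 in NP fl/fl, and 6.03, 4.52, 4.38 and 5.11 in AF cKO and 3.38, 4.27, 4.55 and 5.24 in AF fl/fl. On the AF side the 1 detection was on cKO array 1, the array with the low correlation. Rspo2, a secreted R-spondin, was detected 1 time in NP and 3 times in AF, with 4.88, 5.78, 6.71 and 5.45 in AF cKO and 4.37, 7.13, 6.16 and 5.56 in AF fl/fl, and Rspo3 on 0 NP and 3 AF arrays. Lgr6 reached the limit on 1 AF array, and Lgr5, Rspo1 and Rspo4 on none.

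Of the antagonists, Dkk3, a divergent member of the Dickkopf family, was detected 2 times in NP and 3 times in AF. In AF it had 6.17, 5.44, 5.62 and 5.12 in cKO and 5.3, 7.97, 5.8 and 5.33 in fl/fl, so that 1 fl/fl array was well above the other AF arrays. Dkk1 and Sost were over background on no array. Dkk1 averaged 3.66 ± 0.158 in NP cKO and 3.87 ± 0.186 in NP fl/fl, and Sost, the product of osteocytes, 3.94 ± 0.213 and 4.12 ± 0.208 (SD, n = 4 each). In AF, Dkk1 averaged 4.1 ± 0.456 in cKO and 4.82 ± 0.471 in fl/fl, and Sost 5.08 ± 0.335 in cKO and 4.86 ± 0.107 in fl/fl. Among the intracellular members, Axin2 and Lef1, both known as direct targets of beta-catenin, were over background on no array of either tissue. Znrf3, a feedback gene of the pathway like Axin2 and Lef1, was over background on 8 of 8 arrays of each tissue. Axin2 had 4.12, 4.13, 4.26 and 4.34 in NP cKO and 4.1, 3.86, 4.74 and 3.9 in NP fl/fl. Tcf7l2 was over background on 1 NP array, Gsk3b on 2 NP and 1 AF arrays, Axin1 on 2 NP arrays and Apc on 1 AF array.

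The genotype comparison asked how Wnt genes differed after loss of Sirt6 in each disc tissue. In NP, Znrf3 was the member past the study's thresholds, an unadjusted p of at most 0.05 with a fold change of at least 1.75, and it was higher in cKO. This was 1 of the 42 Wnt genes that passed the filter on low signal (2.38%), against 2.39% of all 16665 genes tested and 1.41% in the same direction. Znrf3 had 8.42, 8.36, 7.74 and 8.19 in NP cKO and 7.19, 7.47, 6.9 and 6.99 in NP fl/fl. Every cKO array lay above every fl/fl array, as did those of no other tested member in either direction (1 of 42, against 2.81% of all genes, and 1.3% in this direction). It averaged 8.18 ± 0.307 in cKO and 7.14 ± 0.25 in fl/fl (SD, n = 4 each), a log2 difference of 1.04 (SE 0.256, 95% interval 0.48 to 1.60, limma unadjusted p = 0.00158). After Benjamini-Hochberg adjustment over all genes the limma p of Znrf3 was 0.934, and 0 of 42 members and 0% of all genes passed an adjusted p of 0.05. At an unadjusted p under 0.05 limma gave 2 of 42 members, Znrf3 and Dkk2, against 4.94% of all genes. The difference of Znrf3 was as large without NP cKO arrays 1 and 3, at 1.14, and lay between 0.96 and 1.19 in all 18 alternatives tried, past the study's thresholds in each.

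**Figure D2:**
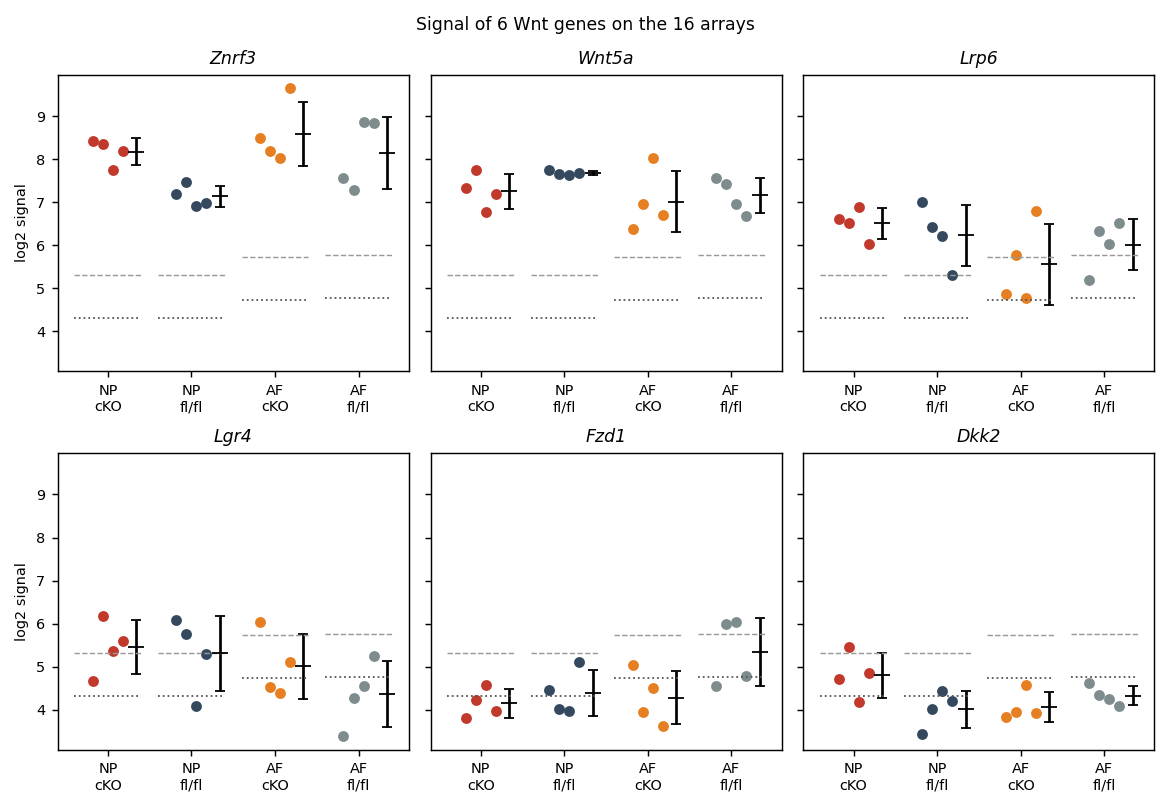
Log2 signal (vertical axis) of Znrf3, Wnt5a, Lrp6, Lgr4, Fzd1 and Dkk2 on each array (points, replicate numbers from left to right within a group), with the group mean and SD in black, the mean background of the group (dotted) and 2-fold above it (dashed). The 4 NP cKO points of Znrf3 lie above the 4 NP fl/fl points, and the Fzd1 and Dkk2 points lie mostly below the dashed lines.

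In AF, Znrf3 had 8.5, 8.18, 8.02 and 9.65 in cKO and 7.56, 7.29, 8.86 and 8.85 in fl/fl, and the groups overlapped. The log2 difference was 0.45 with a 95% interval of −0.59 to 1.49 (limma adjusted p = 0.989), an interval that holds both no difference and the value found in NP. The highest value was on AF cKO array 4, where the cartilage list lay at 4.11 and the muscle list at 2.48 log2 units over background, the highest of all arrays, and their part in the value was not tested. Without that array the difference was 0.0951, and without AF cKO arrays 1 and 4 it was −0.038. The genotype difference of Znrf3 in NP minus that in AF was 0.59 (95% interval −0.59 to 1.77, limma adjusted p = 0.988), so a difference between the tissues in the response of Znrf3 was not detected.

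The other NP members varied around 0. Of 42 tested members 22 had a positive and 20 a negative difference, where 47.2% of all genes were positive, with a median of 0.0216, against a median of −0.023 over all genes. By role, the medians were 0.00632 for 11 ligands, −0.11 for 10 receptors, −0.0169 for 8 genes of the R-spondin axis, 0.0966 for 7 antagonists, −0.105 for 4 genes of the destruction complex and 0.138 for 2 TCF factors. The 95% intervals of 16 of the 42, among them Wnt6, Wnt9a, Fzd6, Lgr6, Sost, Axin2 and Tcf7l2, lay wholly within 1.75-fold in either direction. For the other 26 a change of 1.75-fold lay within the interval. Of the genes just named, Wnt9a was over background on 4 NP arrays, Tcf7l2 on 1 and the rest on 0. For a probe set at background the interval bounds its signal and cannot bound a change of the transcript. Dkk2, which binds Lrp5 and Lrp6, had 4.72, 5.45, 4.19 and 4.85 in NP cKO and 3.43, 4.01, 4.43 and 4.2 in NP fl/fl. Its difference of 0.79 (95% interval 0.09 to 1.49, limma unadjusted p = 0.0304, adjusted p = 0.934) stayed below the fold limit, and it was over background on 1 cKO and 0 fl/fl arrays. Rspo2 had the lowest difference, −0.74 (95% interval −1.67 to 0.18), with 3.88, 3.37, 4.04 and 4.02 in cKO and 5.38, 5.09, 4.65 and 3.17 in fl/fl, of which 1 fl/fl array was over background. Without NP fl/fl array 4, the low one of its group, Rspo2 was at −1.21 (limma unadjusted p = 0.00186, adjusted p = 0.945), past the study's thresholds. Without NP cKO arrays 1 and 3, Gsk3b was at −0.941 and Dkk2 at 1.14, also past them, against −0.37 and 0.79 over all arrays. Wnt5a differed by −0.43 (95% interval −0.99 to 0.14, limma adjusted p = 0.934).

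In AF, Fzd1, a Frizzled receptor, was the member past the study's thresholds, and its signal was lower in cKO. This was 1 of 42 (2.38%), against 3.54% of all genes tested and 1.57% in the same direction, and 0 of 42 members and 0% of all genes passed an adjusted p of 0.05 in limma. Fzd1 had 5.04, 3.95, 4.5 and 3.63 in AF cKO and 4.54, 5.99, 6.03 and 4.79 in AF fl/fl, so that fl/fl arrays 2 and 3 were high and the groups overlapped. The log2 difference was −1.06 (SE 0.45, 95% interval −2.04 to −0.09, limma unadjusted p = 0.0352, adjusted p = 0.984). Fzd1 was over background on those 2 fl/fl arrays and on 0 cKO arrays, and measured against the background limit its fl/fl mean gave no fold above 1. The call was lost in 5 of 17 alternatives, among them those without AF fl/fl array 2 or 3, at −0.845 and −0.831, and without AF cKO array 2 or 4, at −0.951 and −0.845. No tested member had groups that did not overlap (0 of 42, against 2.61% of all genes). Among the genes below the filter, Wnt11 had 4.66, 4.67, 4.65 and 4.84 in AF cKO and 3.87, 3.98, 3.67 and 3.84 in AF fl/fl without overlap, but it was over background on no array, and no fold is given.

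Of the 42 members tested in AF, 28 had a positive and 14 a negative difference, with a median of 0.099, against 0.00737 over all genes, where 50.7% were positive. By role, medians were 0.259 for 11 ligands, −0.0406 for 10 receptors, 0.203 for 8 genes of the R-spondin axis, 0.0736 for 7 antagonists, 0.733 for 4 genes of the destruction complex and −0.126 for 2 TCF factors. Axin1, Apc and Gsk3b, core members of the destruction complex, had differences of 0.84, 0.75 and 0.72, each with a 95% interval that held 0. Axin1 was over background on 0 of 8 AF arrays. Apc and Gsk3b were each over background on 1, cKO array 1, where both had 6.552. On cKO arrays 2, 3 and 4 Apc had 5.754, 5.438 and 3.835, and Gsk3b had 5.357, 4.436 and 4.667. In AF fl/fl Apc had 4.465 to 4.95 and Gsk3b 4.112 to 5.262. Without AF cKO array 4, Apc was at 1.27 (limma unadjusted p = 0.00672, adjusted p = 0.992), past the study's thresholds, and its difference of differences at −1.54, against −1.02 over all arrays. Axin1 was past them without AF cKO array 1, at 1.03, and without AF fl/fl array 2, at 1.22. Members of the list are not independent of each other, and AF cKO array 1, which stood apart, had 10 members over background, against 3 to 8 on the other AF arrays. The AF arrays spread more widely than the NP arrays, with half-widths of the 95% interval of 0.678 to 1.21 in AF and 0.507 to 0.955 in NP. Only Wnt2, Lgr5 and Axin2 had an AF interval wholly within 1.75-fold. Wnt2 was over background on 3 AF arrays and Lgr5 and Axin2 on 0, so the intervals of the last 2 bound signals at background. Wnt5a differed by −0.14 (95% interval −1.02 to 0.73) and Lrp6 by −0.46 (95% interval −1.50 to 0.58) in AF.

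**Figure D3:**
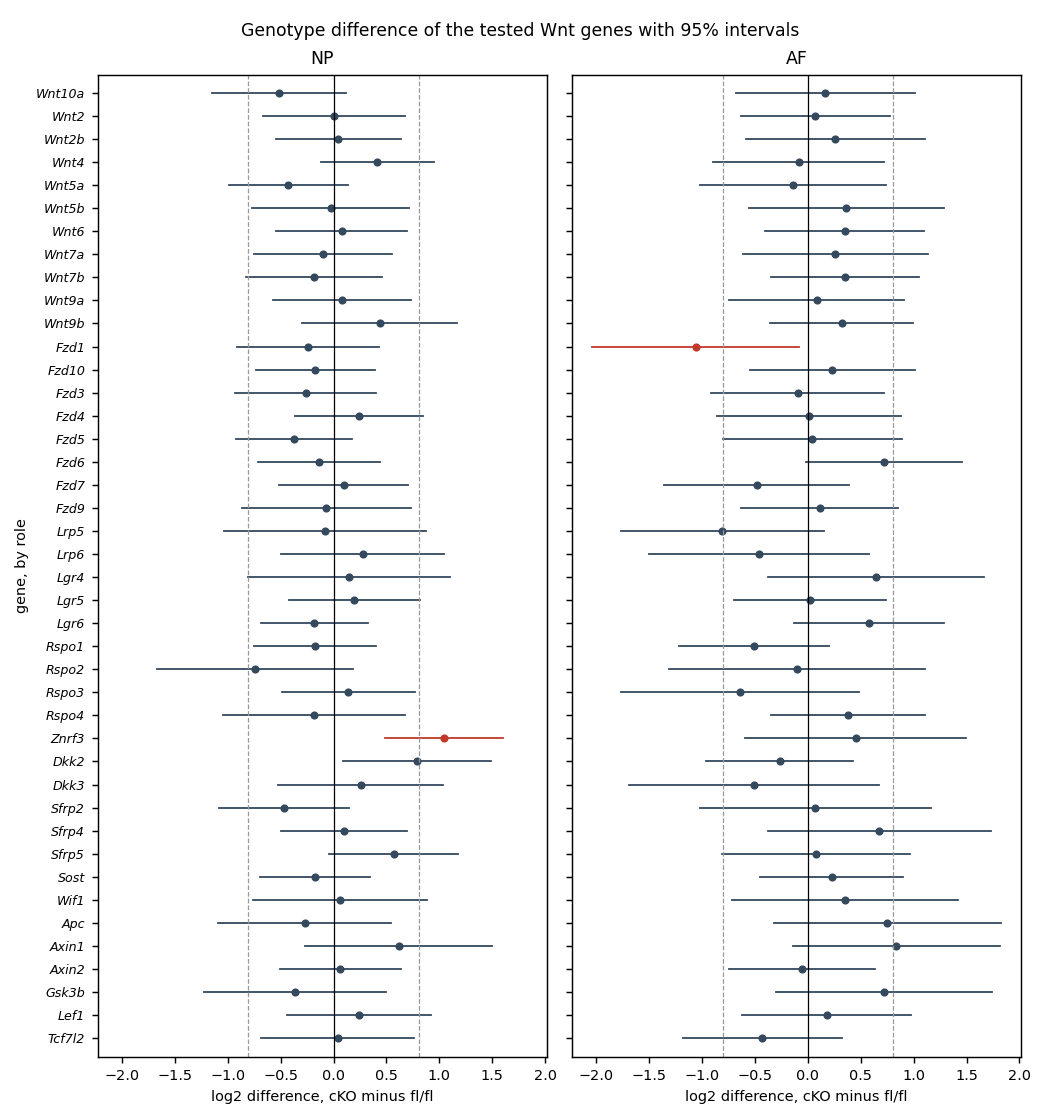
Log2 difference, cKO minus fl/fl (horizontal axis), of the 42 tested Wnt genes (rows, by role) in NP (left) and AF (right), with 95% intervals as lines and the 1.75-fold limits dashed. Red marks Znrf3 in NP and Fzd1 in AF, the members past the study's thresholds, and the intervals of the other genes are wider in AF than in NP for most rows.

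Whether the genotype difference itself differed between NP and AF was tested as an interaction. Dkk2 was past the study's thresholds, 1 of 42 (2.38%) against 4.1% of all genes and 1.96% in the same direction, and 0 of 42 and 0% of all genes passed an adjusted p of 0.05. Its difference of differences was 1.05 (95% interval 0.13 to 1.98, limma unadjusted p = 0.0279, adjusted p = 0.988). In AF Dkk2 had 3.82, 3.94, 4.57 and 3.91 in cKO and 4.63, 4.35, 4.25 and 4.08 in fl/fl, none of them over background. The next lowest p-values were those of Fzd6, at −0.86 (95% interval −1.73 to 0.01), and Lgr6, at −0.76 (95% interval −1.54 to 0.02), both with a limma adjusted p of 0.988. Fzd6, a receptor of planar cell polarity, had 5.47, 5.91, 5.74 and 4.83 in AF cKO and 4.43, 5, 4.86 and 4.78 in AF fl/fl, so that 3 of 4 cKO arrays were above the fl/fl range, and 1 of them was over background. Lgr6 had 5.37, 5.77, 5.79 and 4.85 in AF cKO and 4.98, 4.76, 4.82 and 4.89 in AF fl/fl, also with 3 cKO arrays above fl/fl and 1 over background. In NP neither was over background on any array.

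The last comparison set NP against AF within each genotype, after each array was centred on its median over named genes, because AF arrays lay higher as deposited (array medians of 4.36 to 4.44 in NP and 4.83 to 4.96 in AF). The tissue comparisons use the same arrays as the genotype comparisons, and since the labels give 4 mice of each genotype, NP and AF samples may share mice, but no label ties the samples of a mouse. In cKO mice, 10 of 42 members were past the study's thresholds (23.8%), against 14.2% of all genes, 6 of them higher in NP (14.3%, against 6.82%) and 4 lower (9.52%, against 7.36%). At a limma adjusted p under 0.05, 3 members were called (7.14%, against 1.33% of all genes), 2 of them higher (0.612% of all genes) and 1 lower (0.714%). Tcf7l2, a transcription factor through which beta-catenin acts, was higher in NP by 1.57 log2 units (95% interval 0.88 to 2.27, adjusted p = 0.0265). Relative to the array median it averaged 0.541 ± 0.403 in NP cKO and −1.03 ± 0.257 in AF cKO (SD, n = 4 each), without overlap, but it was over background on no cKO array. Dkk2 was higher in NP by 1.26 (95% interval 0.61 to 1.90, limma adjusted p = 0.0483), with 0.399 ± 0.485 in NP cKO and −0.856 ± 0.319 in AF cKO. Lgr6, an R-spondin receptor, was lower in NP by 1.08 (limma adjusted p = 0.0483), with −0.553 ± 0.213 in NP cKO and 0.525 ± 0.433 in AF cKO. Dkk2 and Lgr6 were each over background on 1 of the 8 arrays, so the calls compare signals at or near background. Leaving out each of the 8 cKO arrays in turn, Tcf7l2 lost its call in 5 of 8 fits, Lgr6 in 7 of 8 and Dkk2 in 8 of 8, though each kept its direction. Of 5 other settings Tcf7l2 and Lgr6 lost it in 1 each and Dkk2 in 4, and with the replicate number as a block 0 of 42 passed an adjusted p of 0.05.

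The other members past the thresholds in cKO mice were Lrp6 (1.47), Lrp5 (1.04), Wnt4 (0.88) and Sfrp5 (0.87), higher in NP, and Rspo2 (−1.36), Fzd6 (−1.05) and Wnt7a (−0.91), lower in NP, with limma adjusted p-values of 0.0733 to 0.24. Wnt4 was over background on no array, and Sfrp5, Fzd6 and Rspo2 each on 1 cKO array, so their values compare signals at or near background. Lrp5 was over background on 2 NP cKO and 0 AF cKO arrays. With AF set at its background limit, Lrp5 gave no fold above 1. Lrp6 was over background on all 4 NP cKO arrays and 1 of 4 AF cKO arrays. Its signal relative to the array median was 1.59 to 2.52 in NP cKO and −0.162 to 1.85 in AF cKO, and the groups overlapped through AF cKO array 4. Wnt7a was over background on 2 AF cKO arrays and 0 NP cKO arrays (limma adjusted p = 0.196). With NP set at its background limit, the AF mean was 1.15-fold higher, though this mean includes AF arrays below the limit. Relative to the array median the groups overlapped, at −0.101 to 0.502 in NP cKO and 0.155 to 1.84 in AF cKO. Wnt7a was not past the thresholds without NP cKO array 1 or AF cKO array 1 or 3. In all, 9 of 42 members did not overlap between the tissues of cKO mice (21.4%, against 12.1% of all genes).

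In fl/fl mice, 5 of 42 members were past the study's thresholds (11.9%), against 12.3% of all genes and 6.04% in the same direction, Gsk3b, Lgr4, Tcf7l2, Wnt5a and Wnt7b, each higher in NP. At a limma adjusted p under 0.05 there were 0 of 42, against 0.744% of all genes, and 6 members at an unadjusted p under 0.05, against 16.6% of all genes. Wnt5a, the 1 of these over background on all arrays, was at 3.26 ± 0.057 above the array median in NP fl/fl and 2.23 ± 0.428 in AF fl/fl (SD, n = 4 each), without overlap. The log2 difference was 1.03 (95% interval 0.33 to 1.72, limma adjusted p = 0.124). In cKO mice the difference of Wnt5a was 0.76 (95% interval 0.06 to 1.45, limma adjusted p = 0.228), with 2.86 ± 0.378 in NP cKO and 2.1 ± 0.674 in AF cKO. Tcf7l2 was higher in NP of fl/fl mice by 1.09 (limma adjusted p = 0.105) and Wnt7b by 1.10 (limma adjusted p = 0.0723), and Wnt7b was over background on no array. Lgr4 was higher in NP by 1.44 (95% interval 0.43 to 2.46, limma adjusted p = 0.138), over background on 3 NP fl/fl arrays and 0 AF fl/fl arrays. With AF set at its background limit, Lgr4 gave no fold above 1. Without overlap were 6 of 42 members (14.3%, against 10.6% of all genes). Znrf3 differed between the tissues by 0.10 in cKO mice (95% interval −0.72 to 0.93) and by −0.50 in fl/fl mice (95% interval −1.33 to 0.32).

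**Figure D4:**
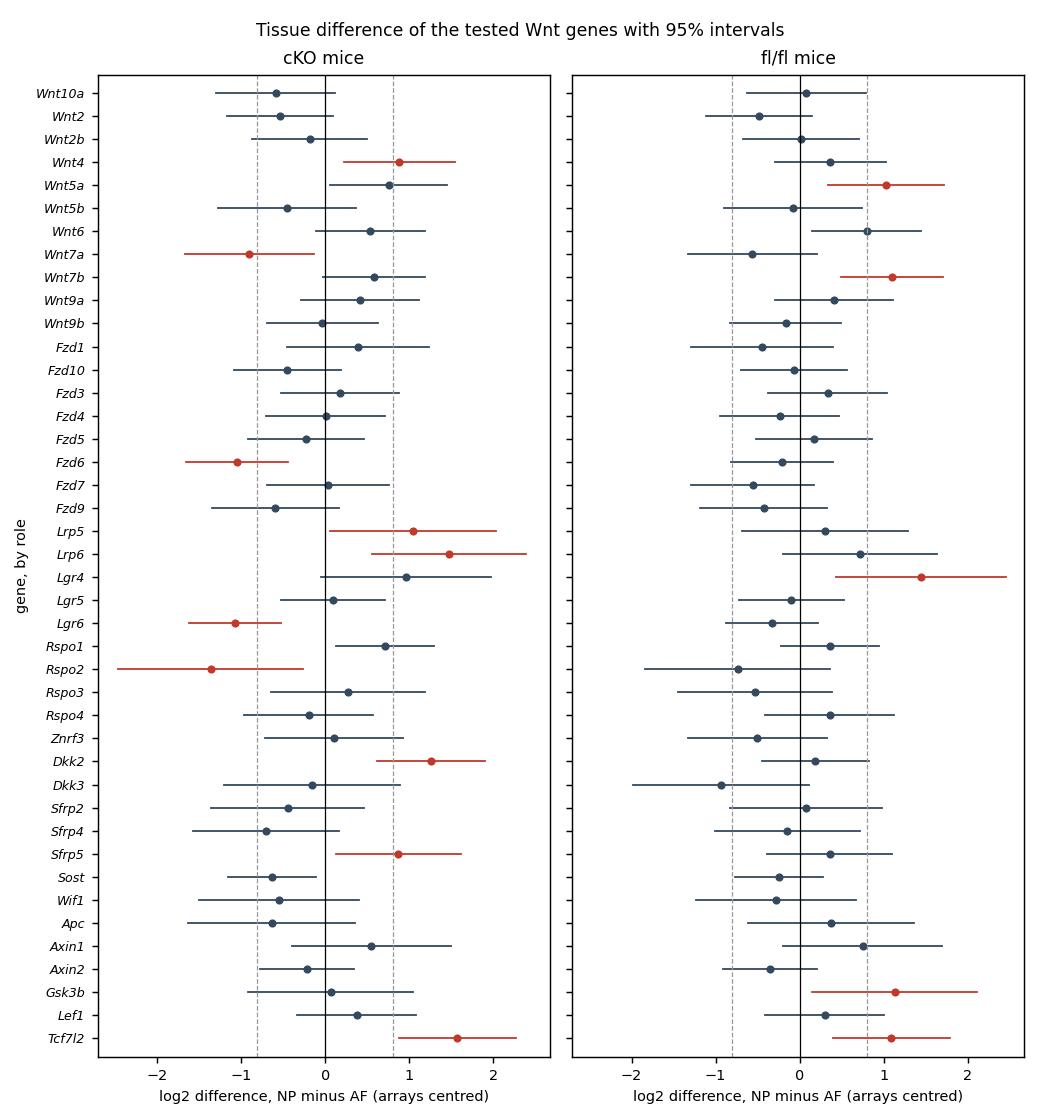
Log2 difference, NP minus AF after centring each array (horizontal axis), of the 42 tested Wnt genes (rows, by role) in cKO mice (left) and fl/fl mice (right), with 95% intervals as lines and the 1.75-fold limits dashed. Red marks the 10 genes in cKO mice and 5 in fl/fl mice past the study's thresholds, with Tcf7l2 on the NP side in both panels.

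The tissue values depended on the centring. With the values as deposited, the median of all genes moved to −0.529 in cKO mice and −0.502 in fl/fl mice. Past the study's thresholds, 2 of 42 members were higher and 14 lower in NP of cKO mice. Over all genes 5002 of 16665 were past them there, 4% of these higher. In fl/fl mice 0 of 42 members were higher and 11 lower in NP, and 4474 of 16665 genes were past the thresholds, 3.89% of these higher. Tcf7l2 kept its direction in cKO mice at 1.06 and in fl/fl mice at 0.59. Lgr6 was at −1.59 in cKO mice and Dkk2 at 0.74 in that setting. With arrays centred on the background control probe sets, 3 of 42 members were higher and 4 lower in NP of cKO mice. Over all genes 2445 of 16665 were past the thresholds, 34.6% of these higher, against 48.1% with median centring. In that setting Tcf7l2 (adjusted p = 0.0294 in limma) and Lgr6 (0.0309) were called in cKO mice and Dkk2 (0.0603) was not.

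Beyond the 55 genes, 57 of 66 other genes of the pathway were tested (porcupine and other Wnt secretion factors, Dishevelled proteins, casein kinases, TCF cofactors, planar polarity genes and further antagonists). In NP, 1 was past the study's thresholds and higher in cKO, and 0 were lower (1.75%, against 2.39% of all genes, of which 1.41% higher and 0.978% lower). It was Bcl9l, a beta-catenin cofactor, with 7.27, 4.83, 7.75 and 5.31 in cKO and 4.91, 4.91, 4.68 and 4.39 in fl/fl, a difference of 1.57 (95% interval 0.35 to 2.79, limma adjusted p = 0.934). The high values, and the only ones over background, were on cKO arrays 1 and 3, which stood apart, and without them the difference was 0.35 (95% interval −0.37 to 1.07) and no longer past the thresholds. In AF, 0 were higher (1.97% of all genes) and 1 lower, Btrc, which takes part in beta-catenin degradation, at −1.06 (limma adjusted p = 0.984) and over background on 0 of 8 arrays, and without AF cKO arrays 1 and 4 it was at −0.73 (95% interval −1.87 to 0.41). Of 21 textbook target genes of beta-catenin, 13 were tested, and 0 were past the study's thresholds in NP or in AF, against 2.39% and 3.54% of all genes. This list left out the feedback genes Axin2, Lef1 and Znrf3, of which Znrf3 was past the thresholds in NP. Of 18 listed targets with a probe set, 4 were over background on at least 4 of 8 NP arrays, against 14.3% of all named genes. On at least 4 of 8 AF arrays there were 5, against 18.1%. In NP 6 of the 13 tested differences were positive and 7 negative, with a median of −0.263, against −0.023 over all genes. In AF 2 were positive and 11 negative, with a median of −0.127, against 0.00737. The NP differences of these targets ran from −0.892 to 2.31, and the highest was that of Sox9, a cartilage factor that is also in the cartilage list, named here after its values were seen. Sox9 had 9.19, 4.26, 9.33 and 3.63 in NP cKO and 3.97, 5.24, 3.9 and 4.03 in NP fl/fl, so that its high values were on cKO arrays 1 and 3.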

How the data were processed

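Expression was measured on Mouse Clariom S arrays, 16 arrays of 4 groups. Per the labels and the study's methods, the authors made the deposited log2 signals with SST-RMA in Expression Console; the sources used here do not say whether NP and AF arrays shared 1 normalization. Depth has no meaning for arrays, and 4 arrays per group limit the precision. The study's methods admitted RNA with an integrity number (RIN) above 4 to these arrays, and the part of RNA quality in the low detection was not tested. The table held 28846 probe sets and 19505 named genes; the probe set with the highest mean stood for a gene. Genes over the 40th percentile of the array on at least 4 of 16 arrays were tested (16665), which 13 members did not pass. Python 3.11.15 and limma 3.58.1 in R 4.3.3 were used (lmFit, eBayes, Benjamini-Hochberg adjustment over all tested genes). Each tissue had its own fit between genotypes, and the interaction (values as deposited) and the tissue contrasts (arrays centred) were fitted over all 16 arrays. Significance analysis of microarrays, which the methods name, was rewritten in R as an alternative. The thresholds (unadjusted p up to 0.05, fold from 1.75) are those the study gives for its array comparisons. Tested on simulated data at the size of the NP comparison, limma recovered, at adjusted p under 0.05, 20% of genes changed by 1 log2 unit and 80% of those changed by 2, and at that of the AF comparison 0% and 50%. The simulation drew independent normal noise with each gene's own spread and added the full change to random genes. It held no arrays that stood apart and no loss of change near background, so these shares are not the power for the members. Replicate numbers were not used as pairs in the main fits. Deviations of same-numbered arrays from their group means correlated at −0.142 to 0.062 over the tested genes. Most genes were not over background on a given array, so these values cannot exclude that same-numbered NP and AF arrays shared a mouse. Named with values on every array or group means were members past the thresholds between genotypes, the 6 with the highest signal over background in each tissue, Axin2, Lef1, Sost, Dkk1, and those with the lowest p in the other contrasts; Rspo3, Wnt11 and others were named after their values were seen. The members and lists were chosen with earlier results of these data known. Each array is 1 mouse. Sequences came from RefSeq tables of GRCm38.p6.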

Additional observations from a re-analysis of the deposited data

Results flagged for a closer look

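Of 76 sets of 4 arrays examined (19 named genes in 4 groups), 2 held an array far from the other 3, where chance flags about 1 in 20 such sets. Dkk2 had 4.57 on AF cKO array 3, against 3.82, 3.94 and 3.91 on the other AF cKO arrays. Sost had 3.62 on NP cKO array 3, against 4.02, 4.04 and 4.07 on the other NP cKO arrays. Neither gene was over background on any of these arrays.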

How the results depend on the processing

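Counts at the study's thresholds are small, and single arrays changed them. In NP the count of 1 became 2 with quantile normalization or median centring (Dkk2 joined Znrf3), 4 without cKO arrays 1 and 3 (Dkk2, Gsk3b, Lrp5 and Znrf3, a choice made after seeing the data), and 1 to 4 leaving out each array in turn (2 without cKO array 1 or 3 or fl/fl array 3, and 4 without fl/fl array 4, which were Axin1, Dkk2, Rspo2 and Znrf3). In AF the count of 1 became 2 with no filter, 0 with only genes over background, 3 without cKO arrays 1 and 4 (Apc, Fzd6 and Lgr6, also chosen after seeing the data), and 0 to 3 leaving out each array (0 without cKO array 2 or fl/fl array 3, 2 without cKO array 1, and Apc, Fzd6 and Lrp5, 3 genes, without cKO array 4; without fl/fl array 2 the 1 gene was Axin1). In the interaction the count of 1 became 2 with no filter, 0 with only genes over background, with array weights or with the replicate block, and 0 to 4 leaving out each array (0 without NP cKO array 2 or AF fl/fl array 1, 2 without NP cKO array 3 or 4 or AF fl/fl array 2, and Apc, Dkk2, Fzd6 and Lgr6, 4 genes, without AF cKO array 4). Between tissues, values as deposited gave 11 in place of 5 in fl/fl mice and 16 in place of 10 in cKO mice, and 4 in place of 0 and 11 in place of 3 at adjusted p under 0.05. The replicate block gave 0 in place of 3 in cKO mice and changed no other count of these comparisons by more than 1.5 times. Leaving out each array gave 4 to 8 in fl/fl mice (8 without NP array 4), 8 to 10 in cKO mice, and 0 to 3 at adjusted p under 0.05 in cKO mice, 3 of them without AF array 4 (Fzd6, Lgr6 and Lrp6) and 0 or 1 without any other array. At adjusted p under 0.05 the genotype and interaction counts of these genes were 0 in all alternatives run. Over all genes, the NP count of 398 became 616 without cKO arrays 1 and 3, 653 without cKO array 2 and 710 without cKO array 4, and with only genes over background, where fewer genes were tested, the counts of 398, 590 and 684 (NP, AF and interaction) became 85, 122 and 189. That of 2043 between tissues in fl/fl mice became 4474 and that of 2362 in cKO mice 5002 with values as deposited, and at adjusted p under 0.05 the 124 became 2330, or 1 with the block and 17 at the fewest leaving out an array (NP array 4), and the 221 became 3025, or 2 with the block and 52 at the fewest (without NP array 1). Sirt6 differed by −0.0263 in NP, −0.227 to 0.0549 leaving out each array, with 0.0549, 0.0497 and 0.0172 without cKO array 1, 2 or 3 and 0.0548 and 0.0267 without fl/fl array 3 or 4. In AF it differed by −0.499, −0.73 to −0.232 leaving out each array, with p = 0.0286 in an exact permutation test without cKO array 3. The cause of these shifts was not tested. Most members lie near background, which limits what their differences can show.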
